A study of Mus musculus with 40 samples.

Results

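The cytosolic ribosomal protein genes code for the protein part of the cytoplasmic ribosome. They were taken as the protein-coding genes of GENCODE M21 with an Rpl or Rps symbol and a number, together with Rpsa, Rplp0, Rplp1 and Rplp2 and without the S6 kinases. The rule found 84 genes among 55487 gene entries, of which 52 belong to the large (60S) subunit and 32 to the small (40S) subunit, and all 84 passed the filter on low counts. Their mRNA was followed in 40 single mouse embryos, each sequenced by SMART-seq2, a full-length cDNA method without molecular identifiers. Embryos had been injected as zygotes, 17 to 18 h after hCG, with 20 µM of a non-targeting control siRNA (siCon) or of an siRNA against Rif1 (siRif1), which codes for a regulator of replication timing and heterochromatin. They were cultured in KSOM and collected at the 4-cell stage (63 h after hCG) or at the 8-cell stage (70 h after hCG). The 4-cell groups held 7 (siCon) and 13 (siRif1) embryos, the 8-cell groups 8 and 12. The labels give the cross of all embryos as (C57BL/6J xCBA) x DBA followed by a number that runs from 2J to 41J over the samples. They do not say which embryos shared a mother or an injection day, so p-values measure the spread between these embryos.

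A ribosome holds 1 copy of most of these proteins, and a surplus subunit protein is usually degraded, so cells make them in matched amounts. Most of their mRNAs start with an oligopyrimidine tract right at the cap (a TOP motif), through which the growth kinase complex mTORC1 and the RNA-binding protein LARP1 set their translation and stability. Cleavage embryos inherit ribosomes from the oocyte and begin to make new ones once the embryonic genome is active. In a bulk sample such as a whole embryo, fewer cells of a type and less RNA per cell cannot be told apart.

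Promoter sequences of 64 of the 84 genes were matched in RefSeq (GRCm38.p6). The 8 windows below run from 80 bases before the annotated start to 20 bases from it, and capitals mark an unbroken pyrimidine run of at least 5 bases that begins with C at the annotated start. The first 6 are examples from the 13 genes that carry such a run, and Rpl35a also has annotated starts without one. The last 2, Rpl7l1 and Rpl3l, are shown because these genes did not share the increase described below. The 8 windows do not stand for all members. Rps10 carries a run of 10 bases and was called higher in neither comparison, and 44 of 51 genes without a run were called higher in siCon embryos.
Rps6 (chr4:86857348-86857447, minus strand): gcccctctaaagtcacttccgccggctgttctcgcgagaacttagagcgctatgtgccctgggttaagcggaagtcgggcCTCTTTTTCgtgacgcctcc
Rps18 (chr17:33955646-33955745, minus strand): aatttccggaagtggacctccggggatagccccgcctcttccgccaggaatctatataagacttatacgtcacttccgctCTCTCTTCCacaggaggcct
Rps27 (chr3:90213629-90213728, minus strand): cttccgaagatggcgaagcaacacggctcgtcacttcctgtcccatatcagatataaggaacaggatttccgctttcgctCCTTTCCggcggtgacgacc
Rpl28 (chr7:4792885-4792984, plus strand): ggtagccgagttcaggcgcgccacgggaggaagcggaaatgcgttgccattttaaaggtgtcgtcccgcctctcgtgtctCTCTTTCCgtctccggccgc
Rpl35a (chr16:33056402-33056501, plus strand): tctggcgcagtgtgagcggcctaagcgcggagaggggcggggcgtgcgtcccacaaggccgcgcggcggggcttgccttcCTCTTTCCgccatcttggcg
Rpl38 (chr11:114668500-114668599, plus strand): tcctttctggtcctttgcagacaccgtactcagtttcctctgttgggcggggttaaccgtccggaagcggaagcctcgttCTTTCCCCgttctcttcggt
Rpl7l1 (chr17:46782637-46782736, minus strand): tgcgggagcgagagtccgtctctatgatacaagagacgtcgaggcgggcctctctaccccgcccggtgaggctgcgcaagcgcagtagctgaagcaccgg
Rpl3l (chr17:24727746-24727845, plus strand): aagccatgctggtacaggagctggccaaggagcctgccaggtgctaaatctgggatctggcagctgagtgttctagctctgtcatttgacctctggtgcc

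A pyrimidine run at an annotated start was present in 13 of the 64 genes (20.3%), against 3.0% of the 27025 genes with a promoter in the table. With the run allowed to begin within 5 bases of the annotated start, it was present in 45.3% of the ribosomal protein genes and 21.2% of all genes. In the whole window of 300 bases, searched on both strands, the ETS-type motif CCGGAAG was found in 40.6% against 9.9%, the GC box GGGCGG in 62.5% against 38.2%, and ATGGCGG, which the factor YY1 can bind, in 17.2% against 4.7%. The TATA-type motif TATAAA was found in 10.9% against 15.7%, and the E-box CACGTG in 9.4% against 8.1%. These are matches of letters at annotated starts, which may lie some bases away from the start used in the embryo.

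Library totals ran from 704863 to 8890551 counts on mouse genes, with a median of 3186068.5. Counts of Rif1 checked the siRNA labels. Rif1 lay at 302 to 567.7 CPM (TMM-scaled counts relative to the library total; median 367) in siCon and at 88.3 to 381 CPM (median 149) in siRif1 4-cell embryos, and 2 of 13 siRif1 embryos lay at or above the lowest siCon embryo. It was lower in siRif1 by a log2 fold change of -1.26 (SE 0.24, edgeR adjusted p = 0.00643), a call that ended without siCon embryos 3 and 7 (-1.35, edgeR adjusted p = 0.0508), with the 2 groups fitted alone (edgeR adjusted p = 0.0543), with ERCC totals as size factors (0.596) and without the libraries of high spike-in share (0.159). At the 8-cell stage Rif1 lay at 262 to 382 CPM in siCon and at 94.6 to 410.3 CPM in siRif1 embryos, with 3 of 12 at or above the lowest siCon embryo, and the difference of -0.52 (SE 0.24) missed the threshold (edgeR adjusted p = 0.999).

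Several 4-cell libraries stood apart. Spike-in (ERCC) RNA made up 4.72%, 7.18% and 5.10% of counts in siCon 4-cell embryos 3, 5 and 7, and 5.16% and 5.58% in siRif1 4-cell embryos 9 and 13, against at most 4.05% in the other 35. Summed maternal oocyte markers (15 genes, Gdf9, Zp3 and Bmp15 among them) ranged from 293 to 3950 CPM in siCon and from 219 to 535 CPM in siRif1 4-cell embryos, and from 78.6 to 264 CPM at the 8-cell stage. Summed cumulus and granulosa markers (15 genes) reached at most 23.7 CPM at the 4-cell stage and 11.8 CPM at the 8-cell stage, with Fshr, Ptx3 and Inhba at 0 in every group. Of 10 cleavage embryo markers, 9 were detected in the siCon 4-cell group (Cdx2 at 0) and 10 in each other group.

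**Figure D1:**
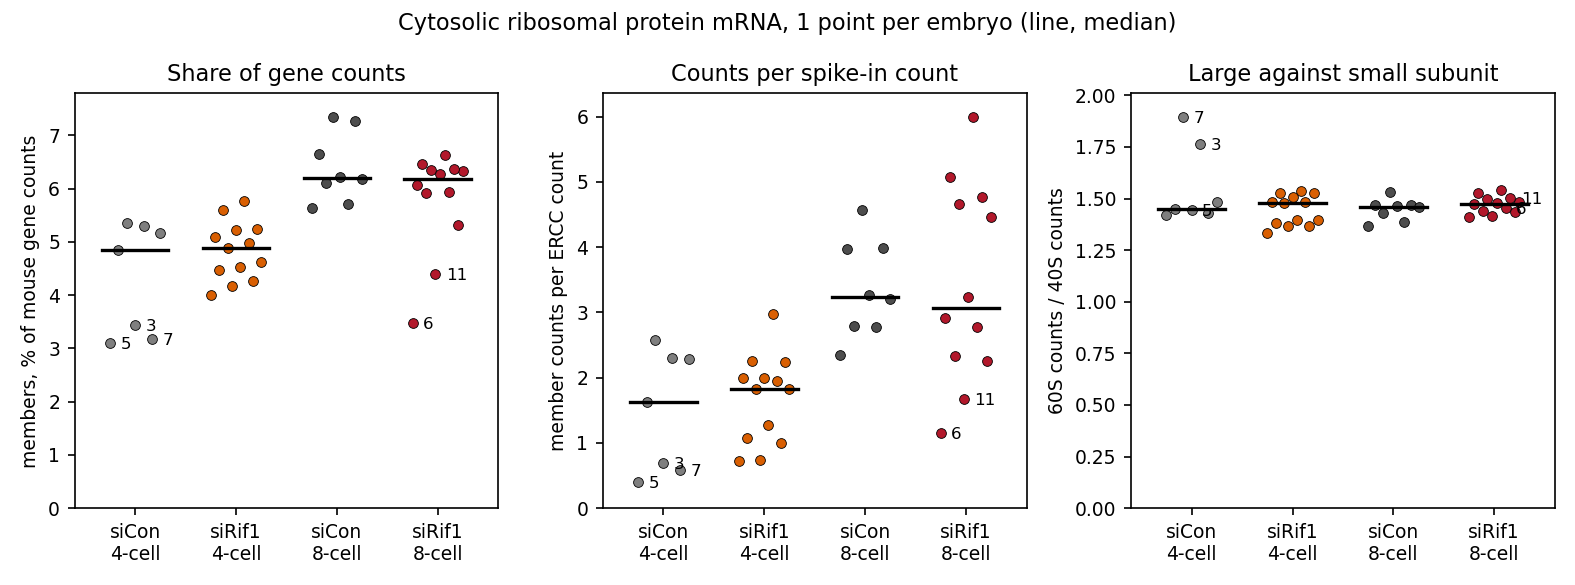
Ribosomal protein mRNA in each embryo as a percentage of mouse gene counts (left), as counts per ERCC spike-in count (middle) and as the ratio of 60S to 40S counts (right); lines are group medians and numbers mark embryos named in the text. Shares at the 8-cell stage lie mostly above those at the 4-cell stage, siCon 4-cell embryos 3, 5 and 7 and siRif1 8-cell embryos 6 and 11 lie low in the left panel, and siCon 4-cell embryos 3 and 7 lie high in the right panel.

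Ribosomal protein mRNA took up 3.11% to 5.35% of gene counts in siCon 4-cell embryos (median 4.84%, n = 7) and 5.63% to 7.34% in siCon 8-cell embryos (median 6.20%, n = 8), so the ranges did not overlap. In siRif1 embryos the share was 4.01% to 5.78% at the 4-cell stage (median 4.89%, n = 13) and 3.48% to 6.63% at the 8-cell stage (median 6.17%, n = 12). There 10 of the 12 embryos at the 8-cell stage were at 5.31% or more, and embryos 6 (3.48%) and 11 (4.40%) lay lower. In TMM-scaled CPM these 2 embryos had 43 and 46 of the 84 members below their group median and 41 and 38 above it. Per spike-in count, the median of member counts went from 1.63 to 3.23 in siCon and from 1.83 to 3.07 in siRif1 embryos. The ratio of the 8-cell to the 4-cell median was 1.28 in siCon and 1.26 in siRif1 embryos as a share of gene counts, and 1.99 and 1.68 per spike-in count.

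In siCon 4-cell embryos the low shares belonged to embryo 3 (3.44%, 95% exact Clopper-Pearson interval 3.42% to 3.46%), embryo 5 (3.11%, 3.08% to 3.13%) and embryo 7 (3.18%, 3.16% to 3.20%). These intervals cover counting error only, since reads without molecular identifiers are not independent molecules. The same 3 libraries held the high spike-in shares given above. Most single members followed the pool there: 72, 59 and 79 of the 84 genes lay below the group median in embryos 3, 5 and 7. Leaving out embryos 3 and 7 gave a siCon 4-cell median of 5.16%. Embryo 5, with the lowest share and the highest spike-in share of the group, stayed in there. It also stayed in every fit below that left out embryos 3 and 7.

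The 2 subunits kept a near constant proportion. Counts on 60S genes were 1.33 to 1.54 times those on 40S genes in 38 of the 40 embryos, with group medians of 1.45 (siCon) and 1.48 (siRif1) at the 4-cell stage and 1.46 and 1.47 at the 8-cell stage. The other 2 embryos, siCon 4-cell embryos 3 and 7, had ratios of 1.77 and 1.90. The median SD of a member's log2 CPM was 0.53 and 0.33 in siCon and siRif1 4-cell embryos and 0.17 and 0.25 in 8-cell embryos, where the median over all tested genes was 0.74, 0.66, 0.54 and 0.60. After the mean of all members was subtracted in each embryo the SDs of the members were 0.25, 0.22, 0.14 and 0.21. The tested genes were not matched to the members in level, on which this SD depends, and no mean was subtracted for them.

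Levels of the single genes spanned a wide range in every group. Per kb of merged exons, the highest in siCon 4-cell embryos were Rplp1, a stalk protein that recruits elongation factors (median 2237 CPM per kb), Rpl41, a very short basic peptide of the large subunit (1893 CPM per kb), and Rps29, a zinc-binding protein of the small subunit head (1159 CPM per kb). The median member was at 251.8 CPM per kb. The lowest were Rpl36al (1.26 CPM per kb), Rpl24 (1.79) and Rps10 (2.39). By principal mRNA length, an alternative chosen after seeing the data, the same 3 genes were highest, with Rpl41 first, and the 3 lowest were Rpl36al, Rpl24 and Rpl3l. The order hardly moved with stage: Spearman's rho between 4-cell and 8-cell medians per kb over the 84 genes was 0.976 in siCon and 0.988 in siRif1 embryos, as a description across genes that share libraries and lengths.

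Some low members share annotated exon bases with another gene, on either strand, where unstranded reads count for neither. The shared part was 47.0% of the exon bases of Rpl24 (with Gm28037, same strand), 28.7% of Rps10 (with RPS10-NUDT3 on the same and Gm15420 on the opposite strand) and 24.5% of Rpl36al (with Gm49383, same strand). It was 66.2% for Rpl35 (with Arpc5l and Wdr38, opposite strand), 62.3% for Rpl23a (with Tlcd1, opposite strand, and Snord42b) and 35.4% for Rpl13a (with Gm45713 and small RNA genes of its own strand). These 3 lay at medians of 37.3, 22.8 and 19.6 CPM in siCon 4-cell embryos, ranks 77, 78 and 79 of 84 per kb. Similar parts were shared in Rpl5 (26.7%), Rpl31 (25.3%), Rpl30 and Rps25 (24.8% each). These held medians of 1.25%, 0.709%, 0.313% and 1.26% of the member pool in siCon 4-cell embryos, against 0.0949% for Rpl35. Rpl3l (0.0154% of the pool) and Rpl10l (0.118%) shared no exon bases. The part of shared bases in the low values was not tested. The 300 annotated Rpl and Rps pseudogene symbols took up 0.0531% to 0.168% of gene counts, and reads that map to several such copies are absent from the counts.

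From the 4-cell to the 8-cell stage, nearly the whole set rose in control embryos. In siCon embryos 76 of 84 members were higher and 1 was lower (edgeR adjusted p below 0.05), where 13.7% of all 11844 tested genes were higher and 16.3% lower. The median log2 fold change of the members was 0.80, and that of all tested genes was -0.03. Both subunits took part, with 46 of 52 60S genes and 30 of 32 40S genes higher. For 57 members every siCon 8-cell embryo lay above every siCon 4-cell embryo, a separation that 3.22% of all tested genes had.

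The siRif1 embryos, which share no library with the siCon embryos, gave a like picture. Here 73 of 84 members were higher and 1 was lower, against 14.5% and 15.3% of all tested genes, and the median log2 fold change was 0.55 (all genes -0.01). The higher members were 44 of 52 60S genes and 29 of 32 40S genes. Groups were fully separated for 2 members, Rpl5 and Rpl17 (0.802% of all tested genes). Of the genes called higher, 72 were shared, which is 94.7% of the siCon list and 98.6% of the siRif1 list. With 76 and 73 of 84 members called, most of this overlap follows from the counts alone. The 7 members called higher in neither comparison were Rpl10l, Rpl22l1, Rpl24, Rpl36al, Rpl3l, Rpl7l1 and Rps10. Rps10 had log2 fold changes of 0.68 (SE 0.42) and 0.46 (SE 0.32) and Rpl24 of 0.28 (SE 0.46) and 0.74 (SE 0.37), which missed the threshold.

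**Figure D2:**
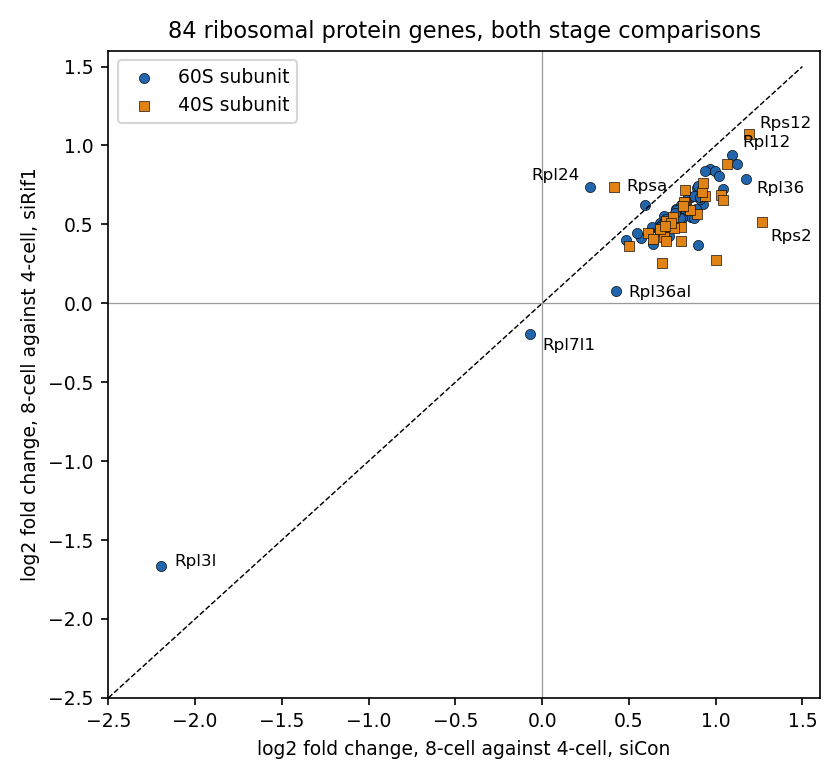
Log2 fold change from the 4-cell to the 8-cell stage of the 84 genes in siCon embryos (horizontal) and siRif1 embryos (vertical), with circles for 60S and squares for 40S genes; the dashed line marks equal values. The members have medians of 0.80 and 0.55 and reach 1.27 and 1.07, while Rpl3l lies at -2.19 and -1.67 and Rpl7l1 at -0.07 and -0.19.

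Among small-subunit genes, Rps2, which lines the path of the mRNA into the ribosome, was at 128 to 952 CPM (median 692.5) in siCon 4-cell and at 1018 to 2239 CPM (median 1617) in siCon 8-cell embryos. No embryo of the later stage fell into the range of the earlier one, giving a log2 fold change of 1.27 (SE 0.24, edgeR adjusted p = 9.04e-05). In siRif1 embryos Rps2 was at 572 to 1263 CPM and then at 930.3 to 1742 CPM, with 4 of 12 embryos of the 8-cell stage above the earlier range. The log2 fold change of 0.51 (SE 0.18, edgeR adjusted p = 0.0289) lost its call when siRif1 4-cell embryo 6 or siRif1 8-cell embryo 1, 2 or 8 was left out (0.47, 0.45, 0.46 and 0.47). That call also ended with the log2 ratio of gene to spike-in counts as a covariate (0.39, edgeR adjusted p = 0.173). It did not hold with a block for replicate number (edgeR adjusted p = 0.0639) or without a filter on low counts (0.0643).

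Rps12, a protein of the small subunit head, went from 87.3 to 321 CPM (median 249) to 359.6 to 714 CPM (median 508) in siCon embryos, without overlap. In siRif1 embryos it went from 146 to 537 CPM (median 232) to 300.1 to 947 CPM (median 514), and 6 of 12 later embryos lay above all earlier ones. The log2 fold changes were 1.19 (SE 0.25, edgeR adjusted p = 0.000372) and 1.07 (SE 0.19, edgeR adjusted p = 3.67e-05). Rps29 rose by 1.065 in siCon and 0.89 in siRif1 embryos.

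Rps6, the substrate of S6 kinase, rose in both comparisons by values below the median member, 0.64 (SE 0.18, edgeR adjusted p = 0.00683) and 0.41 (SE 0.14, edgeR adjusted p = 0.0228). Its siCon call ended without siCon 4-cell embryos 3 and 7 (0.37, edgeR adjusted p = 0.104) and without the libraries of high spike-in share (0.21, edgeR adjusted p = 0.361). That call also ended with ERCC totals as size factors (0.93, edgeR adjusted p = 0.117) and with the compared groups fitted alone (0.60, edgeR adjusted p = 0.0576). With the log2 ratio of gene to spike-in counts as a covariate neither call held (0.37, edgeR adjusted p = 0.0777, and 0.066, edgeR adjusted p = 0.75).

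Among large-subunit genes, Rpl36 was at 102 to 261 CPM (median 204) and then at 314 to 470.2 CPM (median 419) in siCon embryos, without overlap, a log2 fold change of 1.17 (SE 0.19, edgeR adjusted p = 8.18e-06). In siRif1 embryos it was at 112 to 315 CPM (median 214) and then at 189 to 494 CPM (median 364), with 10 of 12 later embryos above all earlier ones, a log2 fold change of 0.79 (SE 0.14). Rpl36a, which lies near the exit site of the ribosome, rose by 1.12 and 0.88, and Rpl12, part of the stalk base, by 1.10 and 0.94. Rpl10, which joins the large subunit late in its assembly, rose by 0.97 and 0.85.

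Rpl5 and Rpl11, which outside the ribosome bind the p53 regulator Mdm2, also rose. Rpl5 was at 251 to 650.2 CPM and then at 758 to 932 CPM in siCon embryos, and at 307 to 639.75 CPM and then at 640.04 to 1004 CPM in siRif1 embryos, so neither pair of ranges overlapped. Its log2 fold changes were 0.90 (SE 0.18) and 0.75 (SE 0.14). Rpl11 rose by 0.73 (SE 0.12) and 0.42 (SE 0.10). The gene with the highest median CPM in every group, Rpl41, had smaller increases of 0.55 (SE 0.14) and 0.45 (SE 0.11), and Rplp1 rose by 0.94 and 0.84.

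**Figure D3:**
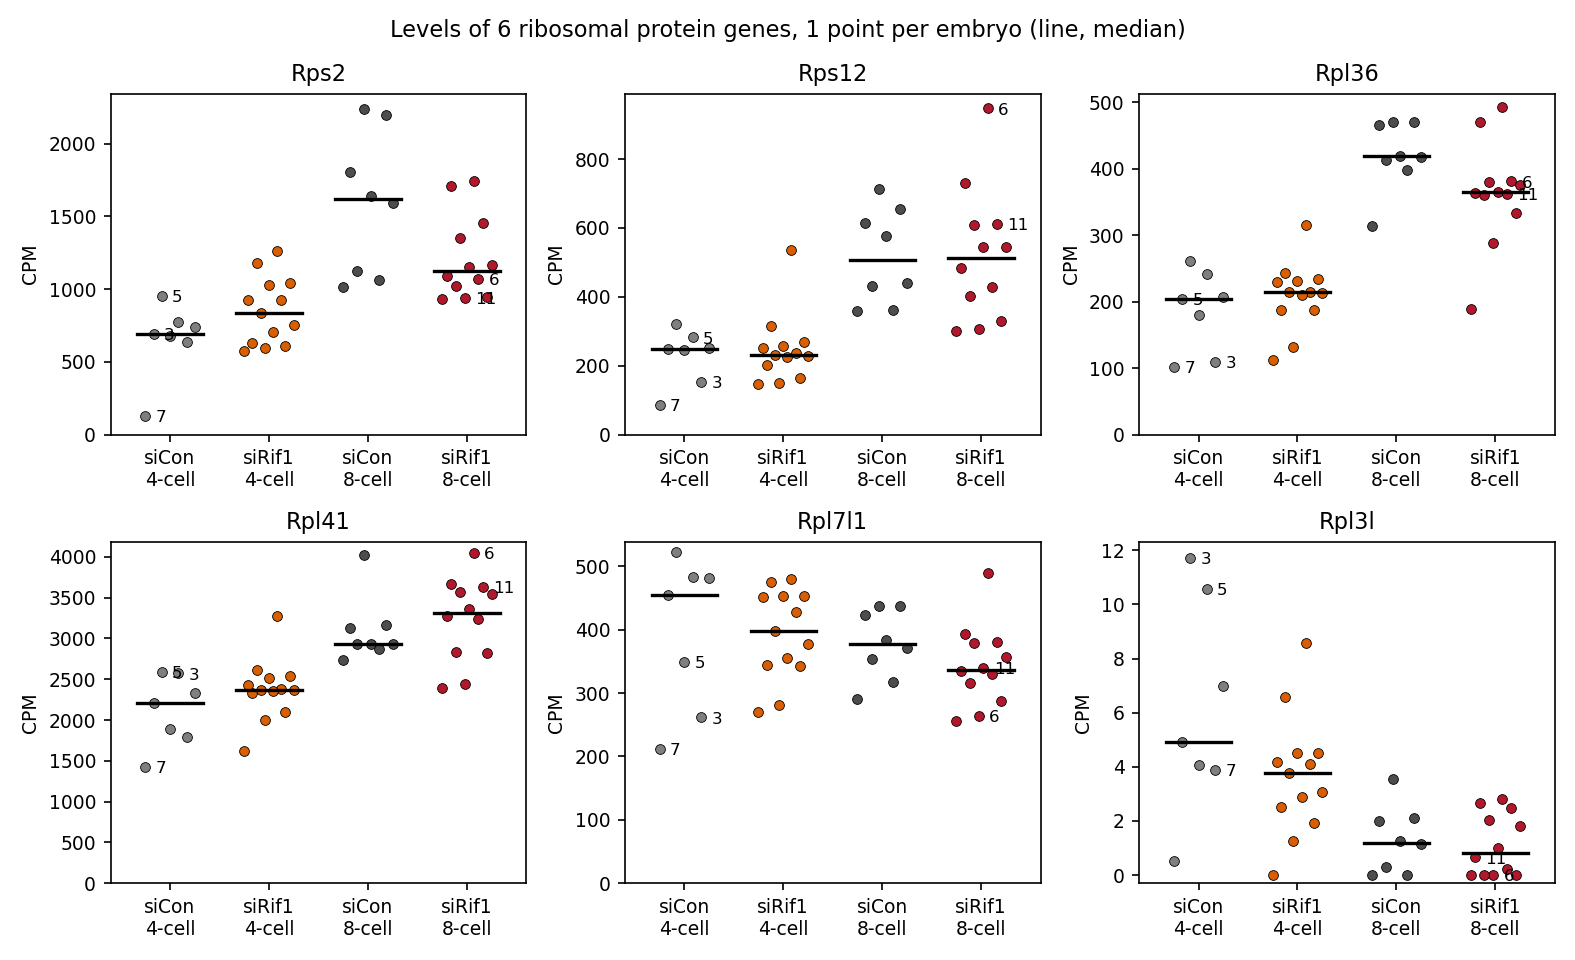
CPM of 6 ribosomal protein genes in each embryo, with lines at the group medians and numbers at embryos named in the text; vertical axes differ between panels. Rps2, Rps12, Rpl36 and Rpl41 are higher at the 8-cell stage, Rpl7l1 has overlapping ranges in all 4 groups, and Rpl3l lies at or below 11.7 CPM throughout and lower at the 8-cell stage.

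Rpl3l, the paralogue of Rpl3 known from striated muscle, was the member that fell. It was at 0.537 to 11.7 CPM (median 4.91) in siCon and at 0 to 8.59 CPM (median 3.79) in siRif1 4-cell embryos, and at medians of 1.20 and 0.821 CPM in the 8-cell groups, where 2 of 8 and 4 of 12 embryos had no count. The log2 fold changes were -2.19 (SE 0.73, edgeR adjusted p = 0.0204) and -1.67 (SE 0.59, edgeR adjusted p = 0.0285). The first call ended without siCon 4-cell embryo 3 (-1.94, edgeR adjusted p = 0.054) and the second without siRif1 4-cell embryo 8 (-1.49, edgeR adjusted p = 0.0564). Both also ended with ERCC totals as size factors (edgeR adjusted p = 0.135 and 0.106). Neither held with the log2 ratio of gene to spike-in counts as a covariate (edgeR adjusted p = 0.0968 and 0.105). The first ended as well without siCon 4-cell embryos 3 and 7 (edgeR adjusted p = 0.0565) and without the libraries of high spike-in share (0.135). Rpl3 itself rose by 0.79 and 0.50.

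Rpl7l1, a paralogue of Rpl7 whose yeast relative acts in assembly of the large subunit, stayed outside the increase. It was at 212 to 523 CPM (median 455) and then at 291 to 438 CPM (median 377) in siCon embryos, and at 269.6 to 481 CPM (median 398) and then at 256 to 489 CPM (median 337) in siRif1 embryos. The ranges overlapped, and the log2 fold changes of -0.07 (SE 0.16, edgeR adjusted p = 0.791) and -0.19 (SE 0.13, edgeR adjusted p = 0.255) missed the threshold. Both turn positive with spike-in totals as size factors (0.32 and 0.33), a scaling that lifts the median of all genes to 0.49 and 0.46. Rpl7 rose by 0.75 and 0.52.

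Changes relative to the rest of the set were read with the summed member counts as size factors, so that a value is a change within the pool. This scaling sets the pool to no change, so few calls follow by construction, and they are not set beside a share of all tested genes. The adjustment was mild under it: Rps2 in siCon embryos had an edgeR p of 0.0333 and an edgeR adjusted p of 0.0561. Some of the few calls can therefore be chance, and their number is not read as a result. In siCon embryos 1 member was higher and 3 were lower: Rpl36 (0.39), Rpl41 (-0.33), Rpl7l1 (-0.84) and Rpl3l (-3.16). In siRif1 embryos 4 were higher, Rps12 (0.52), Rpl12 (0.39), Rps29 (0.31) and Rpl35a (0.28), and 3 lower, Rps7 (-0.31), Rpl7l1 (-0.78) and Rpl3l (-2.23). The 10 members with the highest share of the pool held 27.5% and 27.2% of it in siCon and siRif1 4-cell embryos and 27.2% and 27.7% in 8-cell embryos (medians).

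The paralogue pairs differed in how much the second gene contributed. Shares were taken as CPM per kb of principal mRNA, and merged exon lengths give other absolute shares. In siCon 4-cell embryos Rps27l, a p53-induced gene in human cells, made up 32.5% to 53.7% (median 40.5%) of the Rps27 pair. Rpl39l, best known from testis, made up 15.7% to 40.4% (median 25.0%) of the Rpl39 pair, Rpl22l1 16.0% to 25.6% (median 18.5%) of the Rpl22 pair, and Rpl7l1 15.5% to 25.6% (median 18.0%) of the Rpl7 pair. Rpl10l, a retrogene known from male meiosis, had a median share of 6.08%, Rpl3l one of 0.679% and Rpl36al one of 0.367%. With merged exon lengths the medians were 55.7% for Rps27l, 43.0% for Rpl39l, 8.21% for Rpl22l1 and 27.5% for Rpl7l1.

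The share of Rpl7l1 was lower at the 8-cell stage, at 9.51% to 13.7% in siCon embryos, below every siCon 4-cell embryo, and at 8.75% to 12.5% in siRif1 embryos against 9.06% to 22.7% before. The other shares overlapped between stages: medians went from 40.5% to 32.6% for Rps27l, from 25.0% to 20.7% for Rpl39l and from 18.5% to 17.1% for Rpl22l1 in siCon embryos. Rps27l rose by 0.50 (edgeR adjusted p = 0.0352) and 0.37 (edgeR adjusted p = 0.0466), and each call was ended by several alternatives. The siCon call ended without siCon 4-cell embryos 3 and 7 (0.29, edgeR adjusted p = 0.282), where the siRif1 call held (0.35, edgeR adjusted p = 0.0325). The siRif1 call ended with DESeq2 (0.34, adjusted p = 0.059), and 20 of the 40 fits that left out 1 embryo ended it, against 8 of 40 for the siCon call. Rps27 rose by 0.85 and 0.59. Rpl39l rose by 0.79 and 0.54, and Rpl39 by 1.02 and 0.81. Rpl22l1 (0.49 and 0.40), Rpl10l (0.57 and 0.41) and Rpl36al (0.43 and 0.08) missed the threshold, while Rpl22 rose by 0.72 and 0.51.

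**Figure D4:**
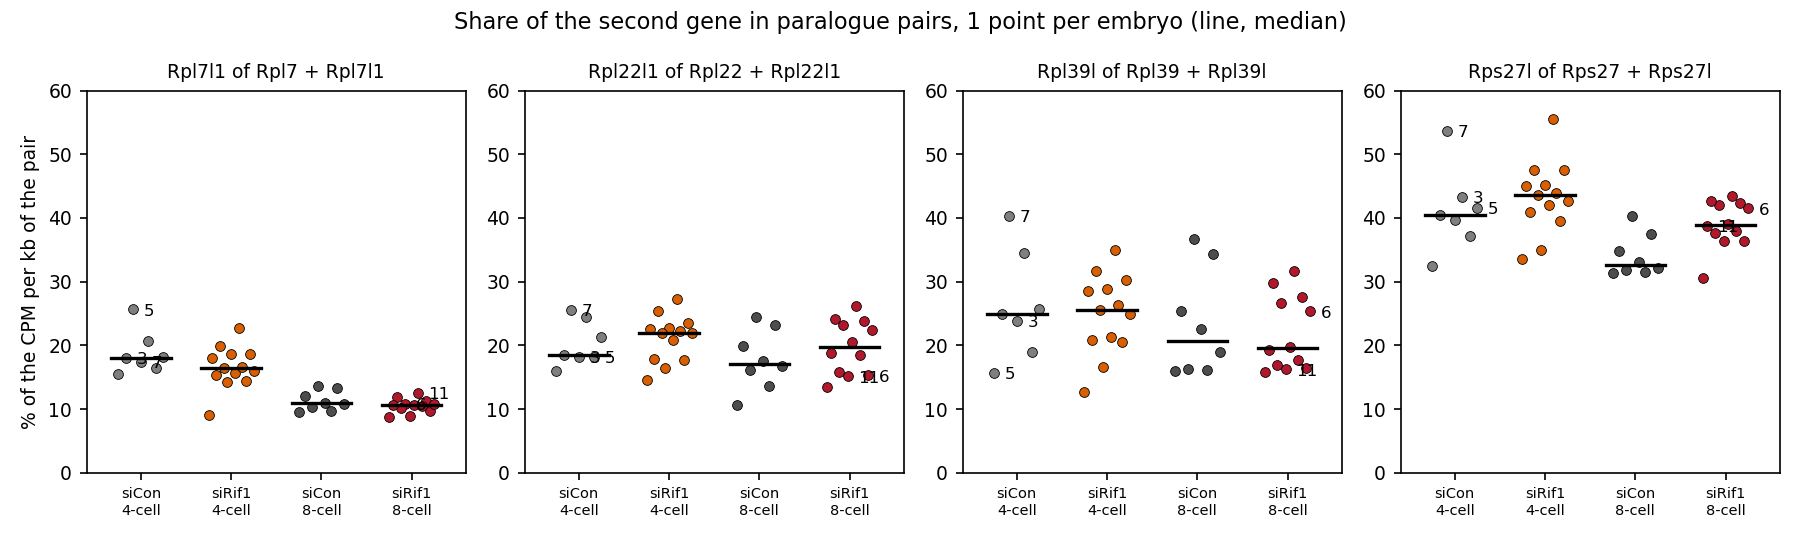
Share of Rpl7l1, Rpl22l1, Rpl39l and Rps27l in the CPM per kb of principal mRNA of their pair, 1 point per embryo and lines at the medians. The Rpl7l1 share of every siCon 8-cell embryo (9.51% to 13.7%) lies below that of every siCon 4-cell embryo (15.5% to 25.6%), while the other 3 shares overlap between stages.

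Genes with and without a pyrimidine run at the annotated start had like values, given without a test. The 13 with it had a median log2 fold change of 0.80 in siCon and 0.57 in siRif1 embryos, with 12 called higher in each. The 51 without it had medians of 0.76 and 0.54, with 44 and 42 called higher. The 26 genes with CCGGAAG had medians of 0.80 and 0.53, against 0.74 and 0.56 in the 38 without.

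The stage difference in siCon embryos was smaller without some or all of the 4-cell libraries that stood apart. Without siCon 4-cell embryos 3 and 7 the members had a median of 0.57, 64 were called higher and none lower, and Rpl13a, Rpl15, Rpl21, Rpl23a, Rpl28, Rpl35, Rpl6, Rps27l, Rps3a1, Rps4x and Rps6 were among those no longer called. Without all 5 libraries of over 4.5% spike-in counts the median was 0.51 with 52 higher, and in siRif1 embryos it was 0.50 with 72 higher. Spike-in totals as size factors gave medians of 1.17 and 1.03 with 54 and 77 members higher, which is 0.68 and 0.57 above the median of all genes. The shares of all tested genes given above belong to the main fit. The counts of these refits therefore do not show whether a change in calls was particular to the members.

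Other genes were read from lists that were drawn up for their known function or TOP motif. Of 19 other TOP transcripts, which include small nucleolar RNA hosts, 13 rose and none fell in siCon embryos and 11 rose and none fell in siRif1 embryos, beside the shares of all tested genes given above (13.7% higher and 16.3% lower in siCon, 14.5% and 15.3% in siRif1 embryos). Among them Pabpc1, the poly(A)-binding protein, rose by 1.20 and Naca, which guards nascent chains, by 0.72 in siCon embryos, and in siRif1 embryos Snhg1, a small nucleolar RNA host, rose by 1.12 and Eef2, the translocation factor, by 0.54. Without siCon 4-cell embryos 3 and 7 the siCon count was 7. Rack1 (0.92 and 0.74) and Fau (0.66 and 0.40), which code for ribosomal proteins under other names, rose in both comparisons.

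Mitochondrial ribosomal protein genes, which serve the ribosome inside mitochondria, were a second list. Of 77 tested, 36 were higher and 1 lower in siCon embryos (median 0.53), and 20 were higher and 1 lower in siRif1 embryos (median 0.26), where 13.7% and 14.5% of all tested genes were higher and 16.3% and 15.3% lower. Mrpl52 (1.78 and 1.04) and Mrpl17 (1.35 and 0.89) rose, and Mrpl41 fell (-0.76 and -0.71), in siCon and siRif1 embryos. None of 21 ribosome assembly factors was called in siCon embryos by edgeR, and 1 was called by DESeq2. An unadjusted edgeR p below 0.05 was reached by 4 of the 21, against 4808 of all 11844 tested genes. In siRif1 embryos 3 of 21 rose, among them Bccip (0.65) and Tsr2 (0.67), a share near the 14.5% of all tested genes.

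Of 19 genes around mTORC1, LARP1 and MYC, 4 rose and 2 fell in siCon embryos, and 5 rose and 1 fell in siRif1 embryos. With 13.7% and 14.5% of all tested genes higher and 16.3% and 15.3% lower, these counts are not read as a change of the list. Akt1s1, an mTORC1 inhibitor, rose by 1.00 and 0.65, and Larp4, a poly(A)-binding La-related protein, by 0.66 and 0.71. Tsc1, a brake on mTORC1, fell by 1.24 and 0.80 on the log2 scale in siCon and siRif1 embryos. Rps6kb1, which codes for the S6 kinase, was called lower in siCon embryos (-0.52, edgeR adjusted p = 0.043), a call that ended when siCon 4-cell embryo 2, 3, 4, 6 or 7 or siCon 8-cell embryo 1, 3, 7 or 8 was left out, in 9 of the 40 such fits (values over all 40 from -0.60 to -0.45).

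**Figure D5:**
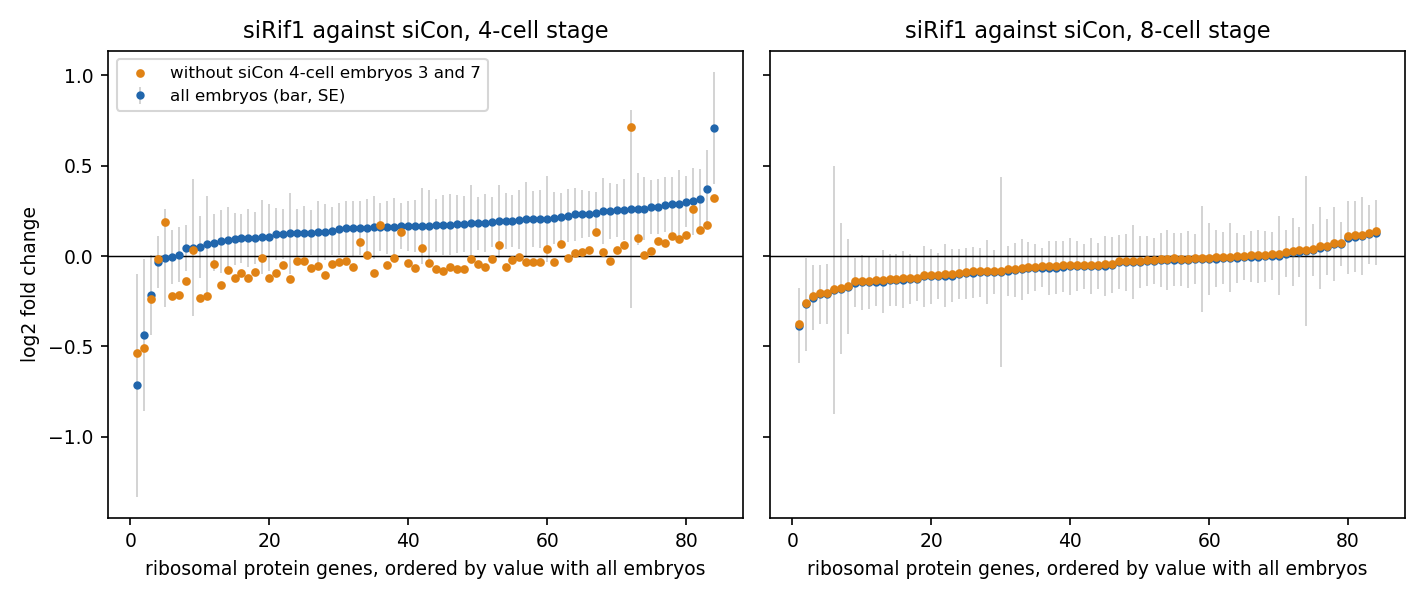
Log2 fold change of siRif1 against siCon embryos for the 84 genes, ordered by value, at the 4-cell stage (left) and the 8-cell stage (right), with all embryos (blue points, bars are SE) and without siCon 4-cell embryos 3 and 7 (orange points). At the 4-cell stage the blue points have a median of 0.17 and the orange points one of -0.03, and at the 8-cell stage the medians are -0.06 and -0.05.

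No member differed between siRif1 and siCon embryos past the threshold at either stage. At the 4-cell stage 0 of 84 were called by edgeR (0.566% of all tested genes were called in either direction), with 3 at an unadjusted p below 0.05 (11.1% of all tested genes), and 0 by DESeq2. Members at values above 0 numbered 78 of 84, where 48.2% of all tested genes lay above 0, and their median was 0.17. Without siCon 4-cell embryos 3 and 7 the median was -0.03, with 30 of 84 above 0, and without the 5 libraries of high spike-in share it was -0.06. Maternal oocyte markers, lower in these siRif1 embryos for 14 of 14 tested genes (5 called), moved in the opposite direction, and their part in the values of the members was not tested.

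The 2 members with the smallest p at the 4-cell stage were both named by rule. Rps3a1, a small-subunit protein, was at 105 to 815 CPM (median 524) in siCon and at 352 to 1278 CPM (median 676) in siRif1 embryos, overlapping ranges with a log2 fold change of 0.71 (SE 0.31, edgeR adjusted p = 0.36). Rpl11 was at 304 to 488 CPM and at 395 to 589.6 CPM, with a log2 fold change of 0.24 (SE 0.11, edgeR adjusted p = 0.419).

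At the 8-cell stage 0 of 84 were called by edgeR (0.00844% of all tested genes) and 0 by DESeq2, with none at an unadjusted p below 0.05 (2.95% of all tested genes). Members had a median of -0.06, and 16 of 84 lay above 0 against 50.5% of all tested genes. With spike-in totals as size factors the median was 0.03. Rps2 was at -0.38 (SE 0.21, edgeR adjusted p = 0.999), with 1018 to 2239 CPM in siCon and 930.3 to 1742 CPM in siRif1 embryos, and Rpl36 at -0.21 (SE 0.16).

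Whether the siRif1 effect differed between stages was tested as an interaction, which is the 8-cell effect minus the 4-cell effect. None of the 84 members was called by edgeR (0% of all tested genes) or DESeq2, and 3 had an unadjusted p below 0.05 (6.2% of all tested genes). The median was -0.21, with 4 of 84 above 0 (51.2% of all tested genes), and it was -0.0024 without siCon 4-cell embryos 3 and 7. The smallest p belonged to Rps2 (-0.76, SE 0.30, edgeR adjusted p = 0.665), followed by Rps7, also of the small subunit (-0.43, SE 0.20, edgeR adjusted p = 0.75). The siCon and siRif1 stage values given side by side above are therefore not shown to differ for any member.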

How the data were processed

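RNA of 40 single embryos was measured in 4 groups taken from the labels. The deposited tables hold raw counts for each gene, which the authors obtained from STAR 2.7.6a on GRCm38, per the submitters' processing notes; for the annotation release, nothing is given in the sources used here. Column 2, the unstranded count, was used, since the strand columns held 49.7% to 51.2% on 1 strand, so reads of genes overlapping on opposite strands cannot be separated (19 of the 84 genes). STAR counts reads that map to 1 place and to 1 gene, so reads shared with pseudogenes or overlapping genes are missing. The 92 ERCC entries and 4 summary entries stayed out of library sizes. GENCODE M21 named 55227 entries.

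Counts were scaled by TMM and filtered with filterByExpr by group at a minimum count of 10, which left 11844 genes. edgeR 4.0.16 (R 4.3.3) fitted a robust quasi-likelihood model with 1 coefficient per group to all 40 libraries; the threshold was a Benjamini-Hochberg adjusted p below 0.05 over all tested genes. SE is the log2 fold change divided by the root of its F statistic. CPM values are TMM-scaled; the prior count for log2 CPM was 2. Shares, subunit ratios and levels are descriptions without a test. Alternatives were RLE size factors, ERCC totals or summed member counts as size factors, no filter, DESeq2 1.42.0, limma 3.58.1 voom with quality weights, the compared groups alone, a replicate block, and libraries left out. Leaving out libraries with over 4.5% ERCC counts, a covariate for the gene to ERCC ratio, and principal mRNA lengths were chosen after seeing the data. The fit was tested on simulated counts.

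No 2 libraries were duplicates (lowest chi-square per degree of freedom 7.15). The members, gene lists and tests were chosen with earlier results of these data known. Named genes are the 5 largest increases and decreases past the threshold per comparison, or the 2 smallest p where none passed, paralogue pairs, the 3 highest and 3 lowest levels, members against the majority, and Rpl5, Rpl11 and Rps6; other genes are up to 2 each way per list. Rpl17, and members listed by count or shared exon bases, fall outside it, chosen once their values had been seen.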

Additional observations from a re-analysis of the deposited data

Results flagged for a closer look

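Among 66 sets of 7 or 8 siCon embryos checked (the pool measures and the named genes), 7 held an embryo far from the others by Dixon's test, where chance flags about 1 in 20. In siCon 4-cell embryos Rpl10 stood at 1353 CPM in embryo 4, with the next at 864, and Rps2 at 128 CPM in embryo 7, with the next at 639. In siCon 8-cell embryos Rpl22 was at 545 CPM and Rpl41 at 4027 CPM in embryo 2, Rpl36 at 314 CPM in embryo 3, Rpl7 at 1602 CPM in embryo 5 and Rpl39l at 315 CPM in embryo 8.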

How the results depend on the processing

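No member was called in either siRif1 comparison or in the interaction under any alternative run. The siCon stage count of 77 and the siRif1 stage count of 74 kept within 1.5 times in every alternative but the summed member counts as size factors, where they were 4 and 7 by construction and the medians 0.0090 and -0.020. Scaling by ERCC totals moved the median to 1.03 in the siRif1 stage comparison and to 0.026 for siRif1 at the 8-cell stage; members per ERCC count gave stage ratios of 1.99 (siCon) and 1.68 (siRif1). Leaving out 1 embryo at a time gave 73 to 78 calls and medians of 0.70 to 0.87 for the siCon stage comparison, 72 to 75 calls and 0.51 to 0.58 for the siRif1 one, and medians of 0.07 to 0.24 for siRif1 at the 4-cell stage, -0.07 to -0.03 at the 8-cell stage and -0.28 to -0.11 for the interaction. Replicate numbers did not pair the samples (34 pairs, correlations from -0.235 to 0.174, 5 over 0.1); the replicate block gave 77 and 70 stage calls and ended those of Rif1 at the 4-cell stage (-1.23, edgeR adjusted p = 0.0705) and of Rps6 in siRif1 embryos (0.40, edgeR adjusted p = 0.0503). Without a filter on low counts the latter was 0.40 (edgeR adjusted p = 0.0561).

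The other TOP transcripts had 4 (ERCC totals), 3 (summed member counts), 7 (without siCon 4-cell embryos 3 and 7) and 5 (without high ERCC shares) calls in siCon, and 6 (summed member counts) and 5 (ERCC covariate) in siRif1 embryos. Assembly factors had 1 (RLE, DESeq2), 2 (limma-voom, replicate block, without embryos 3 and 7, without high ERCC shares), 3 (covariate) and 16 (summed member counts) in siCon, and 5 (groups alone, without embryos 3 and 7), 6 (covariate) and 14 (summed member counts) in siRif1 embryos. Ribosomal proteins with other names, Rack1 and Fau, had 1 (ERCC totals, without embryos 3 and 7, without high ERCC shares) and 0 (summed member counts) in siCon, and 1 (no filter) and 0 (summed member counts) in siRif1 embryos. Mitochondrial ribosomal genes had 24 (groups alone) and 22 (without high ERCC shares) in siCon, and 37 (ERCC totals) and 13 (no filter) in siRif1 embryos. Leaving out 1 embryo gave 11 to 14 and 9 to 12 TOP calls, 0 to 2 and 3 to 4 assembly calls, 5 to 10 and 5 to 7 mTORC1 calls, 2 and 1 to 2 calls of other-named proteins, and 31 to 39 and 17 to 24 mitochondrial calls. All these counts take calls in either direction. No share of all tested genes from the same refit stands beside them, so they are not read as a change of a list. With summed member counts as size factors, genes that did not rise with the pool move down by construction. The causes were not tested.

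With ERCC totals Rpl7l1 turned to 0.32 and 0.33. With summed member counts, which set the pool to no change, values turned negative in siCon embryos for Rpl11 and Rps6 (-0.10 each), Rpl41 (-0.33), Rps7 and Rpl22 (-0.10 each), Rpl22l1 (-0.35), Rps27l (-0.31), Rpl39l (-0.058), Rpl10l (-0.40), Rpl36al (-0.60), Rpl7 (-0.012), Naca (-0.087), Larp4 and Fau (-0.14 each). In siRif1 embryos they did for Rps2 (-0.063), Rpl11 (-0.15), Rps6 (-0.16), Rpl41 (-0.13), Rps7 (-0.31), Rpl22l1 and Rpl10l (-0.19 each), Rps27l (-0.21), Rpl39l (-0.021), Rpl36al (-0.53), Rpl22 (-0.065), Rpl3 (-0.075), Rpl7 (-0.035), Eef2 (-0.033) and Fau (-0.18). Leaving out 1 embryo gave -0.18 to 0.013 for Rpl7l1 in siCon embryos, and 0.025 to 0.83 and -0.086 to 0.22 for Rpl36al in siCon and siRif1 embryos.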
